A study of Rattus norvegicus with 9 samples.

Results

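Small leucine-rich proteoglycans are secreted proteins built around a row of leucine-rich repeats, most of which carry chondroitin, dermatan or keratan sulphate chains. They coat collagen fibrils, set fibril thickness and spacing, and hold growth factors such as TGF-β in the matrix, and in the heart they are made mainly by fibroblasts. The family was examined here through 10 genes chosen by name: Dcn, Bgn, Lum, Fmod, Ogn, Prelp, Aspn, Omd, Podn and Kera. Of these, 9 have a row among the 35843 genes of the deposited table, and no name had more than 1 row. Podn, which encodes podocan, was not analysed here. Of the 9, 7 had reads, while Omd (ENSRNOG00000046658, osteomodulin of bone) and Kera (ENSRNOG00000004635, keratocan of the cornea) were listed at 0 FPKM in each rat. The endothelial marker Cldn5 was also at 0 in each rat, although Cdh5, another endothelial marker, was at 49.8 to 190 FPKM. Whether such zeros reflect absent mRNA or reads that were not assigned was not tested.

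Adult male Sprague-Dawley (SD) rats were studied at day 28 in 3 groups of 3. Group Sham was operated without ligation and received saline by daily gavage. Group MI had the left anterior descending artery tied off permanently and the same saline, and group MI + DAPA (1st d) had the same ligation and received dapagliflozin (DAPA), an inhibitor of the sodium-glucose co-transporter SGLT2, by daily gavage from the first day. RNA came from the left ventricle, and the study's methods say that molecular experiments mainly used tissue from the infarct border after removal of the scar. The study's RNA-seq results, however, call the sequenced tissue of the infarcted groups infarct myocardium. How much scar the sequenced samples held is not stated in the sources used here. Whole reads recovered from the FPKM values (fragments scaled by gene length and a library-size term) numbered 13597239 to 17210909 per rat. That term did not follow the total reads. In Dcn, 7345 reads of Sham replicate 1 stood for 376.906 FPKM and 30148 reads of MI replicate 1 for 837.885 FPKM. Total reads of these rats were 16899773 and 15565791. Fold changes between groups rest on this scaling. Genes outside the mitochondrial genome had 5899666 to 6858645 reads in group Sham, against 11519732 to 13222454 in the other groups, so precision was lowest for the sham rats. Transcripts of the mitochondrial genome took 59.9% to 65.7% of all reads in group Sham, 6.93% to 18.7% in group MI and 17.1% to 31.6% under DAPA. Cardiomyocyte markers (10 of 12 listed were found) summed to 7022 to 10355 FPKM in group Sham, 2045 to 10112 in group MI and 7822 to 16595 under DAPA, with none of the 10 at 0. Endothelial markers (7 of 8 found, Cldn5 at 0) summed to 938 to 1107, 267 to 347 and 356 to 395 FPKM in the same order. In bulk tissue, fewer cells of a type and less RNA per cell cannot be told apart.

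Promoter sequence is shown for 3 members that behaved differently after infarction, Lum and Ogn, which rose, and Fmod, which did not pass the test. RefSeq promoters (GRCr8, the build of that table) matched 7 of the 10 members, and Dcn, Bgn and Prelp were not matched. Each line gives the 250 bases before the annotated start, 5′ to 3′ on the gene's strand, at chr7:34245456-34245705 (plus strand, Lum), chr13:48045317-48045566 (plus strand, Fmod) and chr17:15258996-15259245 (minus strand, Ogn). Capitals mark matches on either strand to CAGAC (the SMAD box), GGGCGG (the GC box), GGAATG (the TEAD motif) or TATAAA (the TATA box).
Lum: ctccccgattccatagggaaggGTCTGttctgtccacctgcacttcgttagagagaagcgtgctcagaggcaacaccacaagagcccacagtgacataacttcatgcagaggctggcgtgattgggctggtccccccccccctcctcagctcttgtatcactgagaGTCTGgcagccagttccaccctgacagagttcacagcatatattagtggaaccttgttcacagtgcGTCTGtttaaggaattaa
Fmod: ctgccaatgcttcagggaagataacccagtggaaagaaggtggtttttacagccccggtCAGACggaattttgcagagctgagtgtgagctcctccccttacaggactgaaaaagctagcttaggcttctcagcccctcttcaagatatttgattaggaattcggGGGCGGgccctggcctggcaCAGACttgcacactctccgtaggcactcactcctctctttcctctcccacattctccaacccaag
Ogn: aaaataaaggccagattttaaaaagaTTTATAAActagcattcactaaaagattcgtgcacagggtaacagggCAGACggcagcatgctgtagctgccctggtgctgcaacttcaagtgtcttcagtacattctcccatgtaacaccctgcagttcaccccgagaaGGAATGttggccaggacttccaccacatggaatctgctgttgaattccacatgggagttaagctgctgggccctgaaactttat

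The SMAD box letters occur 3 times in the Lum window, 2 times in the Fmod window and once in the Ogn window, and they occur in 42.8% of the windows of all 27457 genes with a RefSeq promoter. The GC box is in the Fmod window of these 3 (32.4% of all windows) and the TEAD motif in the Ogn window (11.8%). In Ogn, 2 overlapping matches to the TATA box on opposite strands lie far upstream of the start (13.1% of all windows hold a match). No match to TGANTCA, the AP-1 motif, was found in any of the 7 members' windows (6.36% of all). Thus the SMAD box letters are in a window of a member that rose and in that of the member that did not pass the test.

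The infarcted ventricle held more mRNA of 5 family members than the sham ventricle. Bgn, Lum and Prelp were about 10 to 12 times as high in group MI as in group Sham, Ogn was 5.79 times as high and Dcn 2.83 times, while Fmod had a mean below that of group Sham and did not pass the test. A gene was called when limma gave p under 0.05 before adjustment together with a log2 fold change beyond 1 in size, and all fold changes are on log2(FPKM + 1). Genes entered the test when 3 or more of the 6 rats reached 1 FPKM, which kept 6 members, each of them above 1 FPKM in each of the 9 rats, and left out Aspn, Omd and Kera. By these criteria 5 of the 6 were higher in group MI and 0 were lower, where 12.1% of the 13485 genes tested were higher and 10.3% lower. All 5 also had an adjusted p under 0.05 (limma with Benjamini-Hochberg adjustment), as did 11.5% of the genes tested in the upward direction. In each of the 5 the infarcted rats lay above the sham rats without overlap, which held for 27.1% of the genes tested. The median log2 fold change of the 6 was 2.93, beside -0.00501 over all genes tested.

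**Figure D1:**
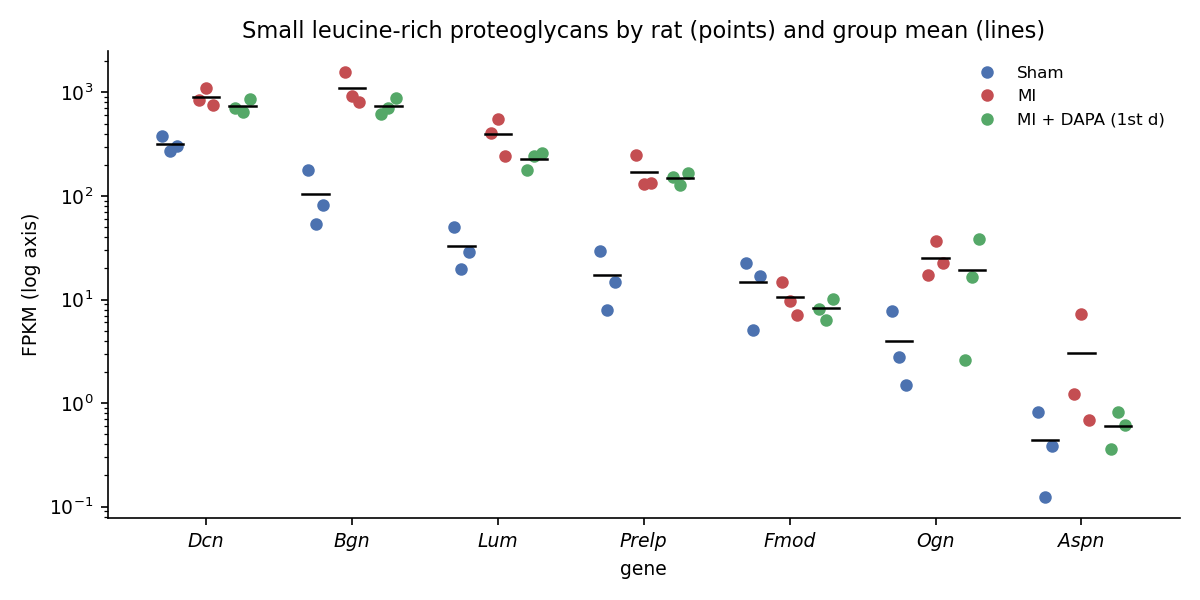
FPKM of 7 members (log axis) in each of the 9 rats, grouped by gene, with points for rats coloured by group and a line at each group mean. In Dcn, Bgn, Lum, Prelp and Ogn the rats of group MI lie above those of group Sham, while the groups overlap in Fmod and Aspn.

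Among the class I members, which carry chondroitin or dermatan sulphate chains, Dcn (ENSRNOG00000004554) encodes decorin, which binds collagen fibrils and TGF-β. The sham rats had 377, 270.1 and 303 FPKM, against 838, 1098 and 763 FPKM in group MI. Every infarcted rat was above every sham rat, though the infarcted rats themselves ranged from 763 to 1098 FPKM. Its log2 fold change of 1.499 had a standard error of 0.21 (adjusted p = 0.00274 by limma). Bgn (ENSRNOG00000055962) encodes biglycan, which organises fibrils and in soluble form engages toll-like receptors. It was at 178, 54.0 and 81.3 FPKM in group Sham and at 1577, 920.5 and 803 FPKM in group MI. The sham rats differed among themselves more than in Dcn, with replicate 1 highest, yet none came near the infarcted rats. Its log2 fold change was 3.50 (standard error 0.45, adjusted p = 0.00217 by limma).

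Aspn (ENSRNOG00000050431) encodes asporin, a relative of decorin that carries no chain. It was at 0.816, 0.125 and 0.388 FPKM in group Sham, resting on 3 to 20 reads, and at 1.22, 7.26 and 0.691 FPKM in group MI. Only MI replicate 2 stood apart, with 300 reads, and MI replicate 3 lay within the sham range. With DAPA it was at 0.362, 0.824 and 0.614 FPKM. The RefSeq table gives Aspnl1 as a synonym of Aspn, but the deposited table holds both names as separate rows, and reads of near-identical copies may be split between them. The row Aspnl1 (ENSRNOG00000015410) had 0 to 2 reads in group Sham, 15 to 32 in group MI and 10 to 72 under DAPA, so the level of asporin is uncertain.

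Of the class II members, Lum (ENSRNOG00000004610) encodes lumican, a keratan sulphate proteoglycan that limits fibril diameter. Lum was at 50.03, 19.8 and 28.9 FPKM in group Sham and at 404, 556 and 242 FPKM in group MI. The log2 fold change was 3.58 (standard error 0.40, adjusted p = 0.00147 by limma), within a standard error of that of Bgn. Prelp (ENSRNOG00000003120) encodes prolargin, which links collagen to basement membranes. It rose from 29.5, 7.99 and 14.7 FPKM to 249.6, 131 and 132 FPKM, a log2 fold change of 3.33 (standard error 0.46, adjusted p = 0.00253 by limma). In both genes Sham replicate 1 was the highest sham rat and the groups were far apart.

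Fmod (ENSRNOG00000003183) encodes fibromodulin, the nearest relative of lumican by class, which binds collagen at a site shared with lumican and guides its crosslinking. It was at 22.7, 5.05 and 16.9 FPKM in group Sham and at 14.8, 9.72 and 7.16 FPKM in group MI. Its reads numbered 184 to 841 in group Sham and 487 to 1012 in group MI. The lower mean FPKM of Fmod in group MI thus rests on the scaling between libraries. The groups overlapped, and the 3 sham rats spanned a wider range than the infarcted ones. The log2 fold change was -0.30 (95% interval -1.50 to 0.90, adjusted p = 0.674 by limma), an interval that covers sizeable changes in both directions. It was 0.097 without Sham replicate 1 and -0.89 without Sham replicate 2 (adjusted p = 0.0744 by limma). Its sign also turned, to 1.13 (adjusted p = 0.0586 by limma), when all FPKM values were rescaled to an equal total per rat with mitochondrial genes included, a scaling that moved the median of all genes to 1.301, above Fmod.

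Ogn (ENSRNOG00000029792) encodes osteoglycin, also called mimecan, a class III member. It was at 7.72, 2.76 and 1.4998 FPKM in group Sham, on 35 to 214 reads, and at 17.1, 36.6 and 22.4 FPKM in group MI, on 876 to 1711 reads. The lowest infarcted rat was above the highest sham rat, and the log2 fold change was 2.53 (standard error 0.48, adjusted p = 0.00694 by limma). In the RefSeq annotation Ogn, Omd and Aspn lie within the span of Cenpp, which encodes a centromere protein. The library kit named in the labels was not described as strand-specific, so reads of overlapping genes cannot be told apart with certainty. Cenpp itself had only 9 to 33 reads in any rat.

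**Figure D2:**
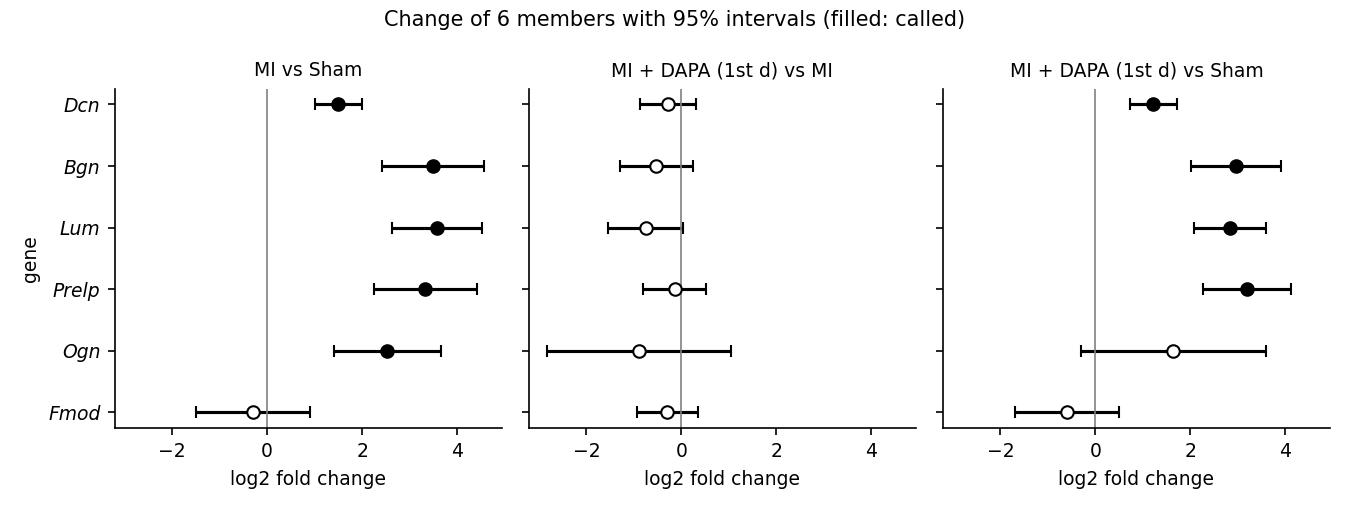
Log2 fold change on log2(FPKM + 1) of the 6 members tested (x axis) in 3 comparisons, with 95% intervals and filled points for genes past both criteria. Dcn, Bgn, Lum, Prelp and Ogn are filled in MI vs Sham, no point is filled for DAPA against MI, and Ogn and Fmod are open for DAPA against Sham.

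FPKM is per gene length, so levels of members were set side by side. Other differences between genes in how reads are counted, such as the overlaps and split reads named above, are not removed. In group Sham the order of mean FPKM was Dcn (317 ± 54.7), Bgn (105 ± 65.4), Lum (32.9 ± 15.5), Prelp (17.4 ± 10.997), Fmod (14.9 ± 8.98), Ogn (3.99 ± 3.29) and Aspn (0.443 ± 0.349) (SD, n = 3 each). The ranges of Lum and Prelp, Prelp and Fmod, and Fmod and Ogn overlapped between rats. Within each of the 3 sham rats Lum was nevertheless above Prelp and Fmod above Ogn, while Prelp was above Fmod in 2 of 3. In group MI the order became Bgn (1100.3 ± 417), Dcn (899.5 ± 176), Lum (401 ± 157), Prelp (171 ± 67.9), Ogn (25.3 ± 10.1), Fmod (10.6 ± 3.87) and Aspn (3.05 ± 3.65) (SD, n = 3 each). Here the ranges of Bgn and Dcn, Lum and Prelp, and Fmod and Aspn overlapped. Within rats Lum was above Prelp and Fmod above Aspn in 3 of 3, and Bgn above Dcn in 2 of 3. Among all 35843 genes ordered by mean FPKM, Bgn stood at rank 531 in group Sham, 47 in group MI and 100 under DAPA. Dcn moved from rank 209 to 64 and 101, and Fmod from 4139 to 5451 and 6310.

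The make-up of the family's mRNA differed between sham and infarcted ventricle, a measure that no scaling between libraries can alter. Of the members' summed FPKM, Dcn made up 66.5% ± 9.31 in the sham rats, 35.2% ± 7.08 after infarction with saline and 39.2% ± 2.76 after infarction with DAPA (SD, n = 3 each). Bgn made up 20.0% ± 6.09, 41.7% ± 8.78 and 39.2% ± 1.91 in the same order. The sum itself was 666, 359.9 and 447 FPKM in the sham rats, 3102, 2759 and 1971 FPKM in group MI and 1658, 1758 and 2223 FPKM under DAPA. Thus Dcn held the majority of the members' summed FPKM in each sham rat, and in none of the 6 infarcted rats. Lum went from 6.49% ± 1.00 to 15.1% ± 4.33 of the sum and Prelp from 3.31% ± 1.10 to 6.51% ± 1.65, while Fmod went from 2.86% ± 1.28 to 0.397% ± 0.0684 (SD, n = 3 each).

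**Figure D3:**
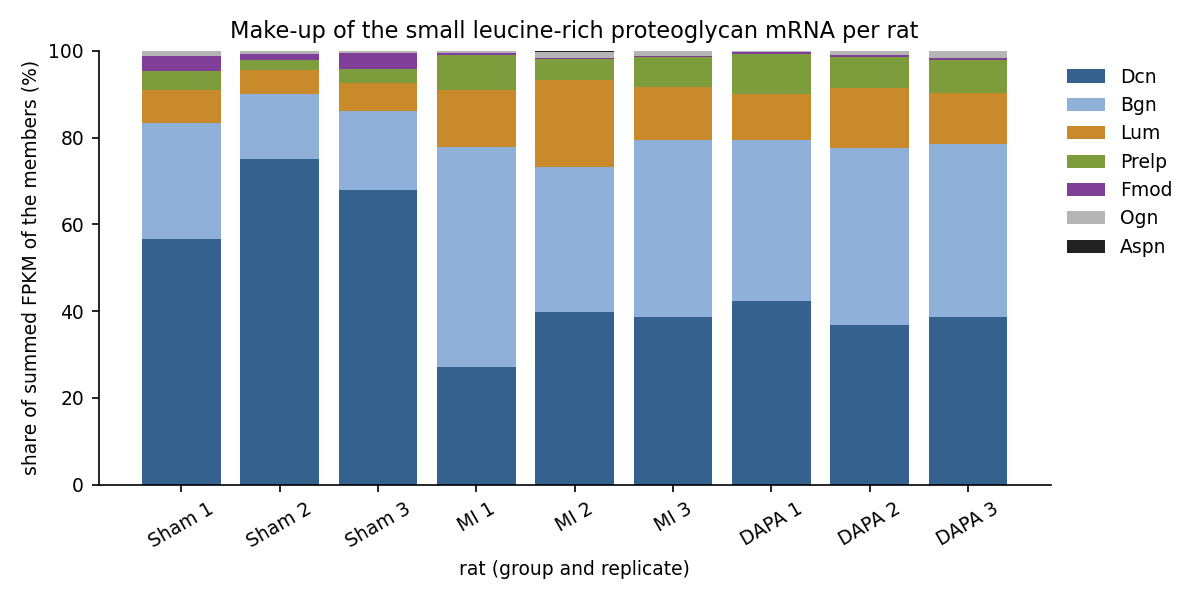
Share of each member in the summed FPKM of the members (y axis, percent) in each of the 9 rats. Dcn (dark blue) takes 56.6% to 75.1% in the sham rats and 27.0% to 42.3% in the 6 infarcted rats.

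Exact permutation tests over rats (two-sided) were used for ratios of members within a library, and 3 rats against 3 cannot give a p below 0.1. The Bgn to Dcn ratio was 0.473, 0.200 and 0.268 in the rats of group Sham and 1.88, 0.838 and 1.05 in group MI. The groups did not overlap, and the mean ratio was 4.03 times as high in group MI (log2 difference 2.01, exact permutation p = 0.1). With DAPA the ratio was 0.877, 1.10 and 1.04, within the range of group MI (log2 difference -0.24, exact permutation p = 0.8), and this difference was 0.091 without MI replicate 1. The Fmod to Lum ratio was 0.453, 0.255 and 0.586 in group Sham and 0.0366, 0.0175 and 0.0296 in group MI. It fell by 3.93 on the log2 scale (exact permutation p = 0.1), with no overlap, so the changes of Fmod and Lum differed in these rats by far more than either group's spread. In the DAPA-treated rats it was 0.0458, 0.0261 and 0.0386 (log2 difference from group MI 0.43, exact permutation p = 0.4).

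The Aspn to Dcn ratio overlapped between group MI and group Sham (log2 difference 0.92, exact permutation p = 0.5), between the DAPA-treated rats and group MI (-1.40, exact permutation p = 0.2) and between the DAPA-treated rats and group Sham (-0.48, exact permutation p = 0.6). The first of these was 0.078 without MI replicate 2 and -0.35 with 1 FPKM added to both genes. The second was -0.56 without MI replicate 2 and -0.47 with Aspnl1 added to Aspn, and the third was 0.017 without Sham replicate 1 and 1.03 with Aspnl1 added to Aspn, an alternative chosen after seeing the data.

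**Figure D4:**
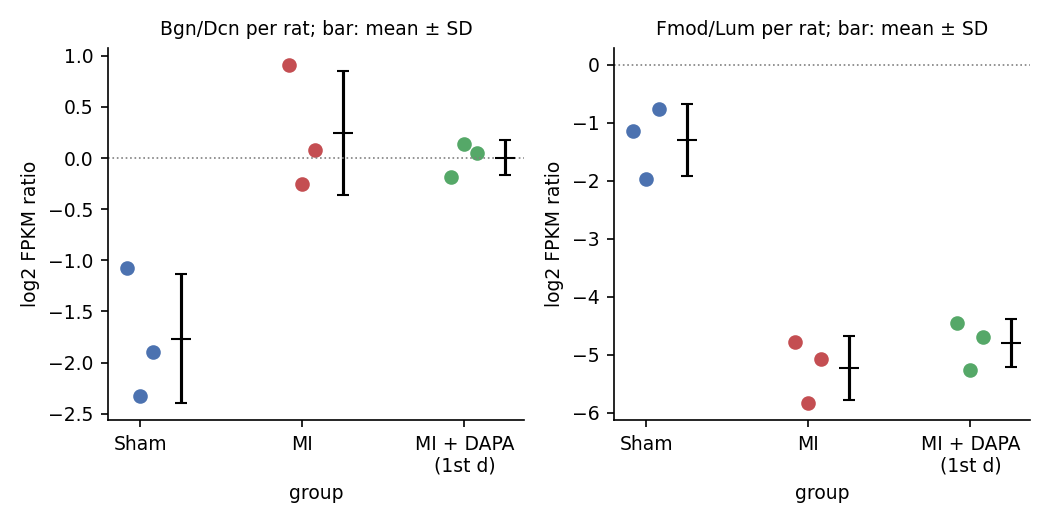
Log2 ratio of FPKM of Bgn to Dcn (left) and of Fmod to Lum (right) in each rat (points) by group, with bars at the group mean ± SD (n = 3). Both infarcted groups lie above group Sham for Bgn to Dcn and below it for Fmod to Lum.

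Neighbouring members differed in their response. In the RefSeq annotation Dcn, Lum and Kera are consecutive genes of chromosome 7, followed by Epyc, and they had log2 fold changes of 1.499 and 3.58 and, for Kera, no reads. Epyc, which encodes the cartilage proteoglycan epiphycan, was at 0 to 0.608 FPKM in group Sham and 0.223 to 1.13 FPKM in group MI. On chromosome 13 Optc, Prelp and Fmod are neighbours, of which Prelp rose and Fmod did not pass the test. Optc (opticin of the eye) was at 0 to 0.938 FPKM in group Sham and 0.428 to 1.40 FPKM in group MI. Ogn, Omd and Aspn follow each other on chromosome 17, and Bgn stands apart from the other members on chromosome X.

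With DAPA, none of the 6 members tested was called against group MI, where 0.951% of the 13251 genes tested were higher and 1.11% lower. No gene passed an adjusted p of 0.05 in this comparison (limma with Benjamini-Hochberg adjustment), and 1125 genes (8.49%) had an unadjusted p under 0.05, the 6 members not among them. All 6 had a negative log2 fold change, with a median of -0.41 beside -0.0184 over all genes tested. In none of them were the DAPA-treated rats separated from group MI, and 13.8% of the genes tested showed no overlap. As few as 6 genes can all miss shares of 8.49% and 13.8%, so this does not set the members apart from other genes. The intervals below show how large a change these 6 rats leave possible.

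Lum had the smallest p of the 6. The DAPA-treated rats were at 178, 243 and 261 FPKM, of which 2 lay just above MI replicate 3 and all lay below the other infarcted rats. The log2 fold change was -0.75 (95% interval -1.54 to 0.04, adjusted p = 0.558 by limma). It was -1.07 without MI replicate 3 (adjusted p = 0.374 by limma) and -1.12 with all values rescaled to an equal total per rat (adjusted p = 0.404 by limma), and with either change it passed the unadjusted criteria. In the other direction it was -0.48 without MI replicate 2 (adjusted p = 0.983 by limma) and -0.59 without DAPA replicate 1 (adjusted p = 0.779 by limma).

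Bgn was at 615, 714 and 889.7 FPKM with DAPA, 2 of these rats below all of group MI, and its log2 fold change was -0.53 (95% interval -1.30 to 0.25, adjusted p = 0.604 by limma). Dcn was at 701, 648 and 857 FPKM, a log2 fold change of -0.28 (95% interval -0.87 to 0.31, adjusted p = 0.686 by limma). Both class I genes thus had intervals that ended near 0.3 on the upper side. Prelp was at 153, 128 and 166 FPKM, which straddled MI replicates 2 and 3 at 131 and 132 but lay below MI replicate 1 at 249.6. Its log2 fold change was -0.14 (95% interval -0.81 to 0.53, adjusted p = 0.864 by limma), and 0.17 without MI replicate 1. Fmod was at 8.17, 6.35 and 10.1 FPKM, a log2 fold change of -0.30 (95% interval -0.94 to 0.35, adjusted p = 0.696 by limma).

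Ogn varied most among the treated rats, at 2.61, 16.3 and 38.7 FPKM. DAPA replicate 1, with 114 reads, lay within the sham range, and replicate 3, with 1855 reads, was above every rat of group MI. The log2 fold change was -0.89 (95% interval -2.84 to 1.05, adjusted p = 0.696 by limma) and was 0.061 without DAPA replicate 1.

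Compared with group Sham, the DAPA-treated rats kept 4 of the 6 members called higher, namely Dcn, Bgn, Lum and Prelp, where 9.54% of the 13359 genes tested were higher and 8.16% lower. The same 4 had an adjusted p under 0.05 and no overlap with the sham rats, where 8.74% of the genes tested met the first condition and 23.2% the second in the upward direction. Their log2 fold changes were 3.20 for Prelp (standard error 0.40), 2.97 for Bgn (standard error 0.41), 2.83 for Lum (standard error 0.33) and 1.22 for Dcn (standard error 0.21). Adjusted limma p-values were 0.00275, 0.00339, 0.00219 and 0.00719 in that order. For Ogn the log2 difference was 1.64 (standard error 0.84, adjusted p = 0.182 by limma), which was 2.59 without DAPA replicate 1 (adjusted p = 0.0325) and 2.58 with values rescaled to an equal total per rat (adjusted p = 0.0176), but 0.86 without DAPA replicate 3 (adjusted p = 0.45). Fmod was at -0.59 (standard error 0.47, adjusted p = 0.380 by limma), at -1.18 without Sham replicate 2 (adjusted p = 0.0204) and at 0.48 after that rescaling, where the median of all genes was 1.00. This comparison shares its sham rats with that of group MI and its treated rats with that of DAPA, so the 3 comparisons are not independent.

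The other family genes listed (Epyc, Optc, Chad, Chadl, Nyx, Tsku, Ecm2, Podnl1 and Nepn) were low, summing to 4.04 to 6.41 FPKM in group Sham, 29.4 to 36.7 FPKM in group MI and 27.9 to 35.6 FPKM under DAPA, with Nepn at 0. A low gene enters a test through the group where it is high. Counts in this and the next lists, and p-values of such genes, are therefore descriptions. All 3 that were tested in group MI vs. group Sham were called higher, and 0 of 5 were called with DAPA vs. group MI. Tsku, the secreted regulator tsukushi, went from 1.02 to 4.27 FPKM in group Sham to 16.6 to 27.2 FPKM in group MI (log2 fold change 2.73, standard error 0.36, adjusted p = 0.00226 by limma). Chadl, a chondroadherin-like protein, had a log2 fold change of 1.32 (adjusted p = 0.0163 by limma).

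Enzymes that build the chondroitin and dermatan sulphate chains of decorin and biglycan moved the same way as their core proteins in part. Of 20 tested, 9 were called higher and 0 lower in group MI vs. group Sham, with a median of 0.87. Chpf, a chondroitin polymerising factor, was at 4.97 to 13.5 FPKM in group Sham and 47.4 to 83.2 FPKM in group MI (log2 fold change 2.74, adjusted p = 0.00202 by limma). Dsel, which makes dermatan from chondroitin sulphate, had a log2 fold change of 1.56 (adjusted p = 0.00174 by limma). With DAPA 0 of 20 were called against group MI, and the gene with the smallest p was Chst14, a dermatan sulphotransferase, at -0.51 (adjusted p = 0.558 by limma). Of the keratan sulphate enzymes, which also act on other glycans, 2 of 7 tested were called higher in group MI, B4galt1 at 2.20 and Chst2 at 1.91 (adjusted p = 0.00233 and 0.00408 by limma), and none was called with DAPA.

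Collagens to which the family binds were all called higher in group MI, 10 of 10 tested with a median of 2.89, and 1 of 10 was called lower with DAPA vs. group MI, with a median of -0.63. That 1 was Col1a1, a chain of type I collagen, at -1.15 (adjusted p = 0.558 by limma). Col6a2 and Col6a1, chains of the type VI microfibrils that biglycan and decorin bind, had log2 fold changes of 2.67 and 2.56 (adjusted p = 0.000953 for each by limma). Growth factors and receptors that bind family members gave 7 called higher and 1 lower of 14 tested in group MI, the latter being Kdr, a vascular receptor for VEGF, at -1.91 (adjusted p = 0.00427 by limma). Tgfb3, a ligand held by decorin and biglycan, had a log2 fold change of 2.32, and Lrp1, an endocytic receptor for decorin, one of 2.85 (adjusted p = 0.00123 and 0.000975 by limma). Proteases able to cleave the core proteins gave 3 called higher of 7, including Mmp2 at 3.61 and Mmp14 at 3.08 (adjusted p = 0.00125 and 0.00314 by limma). Neither list had a called gene with DAPA against group MI.

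Other proteoglycans did not share one direction, with 8 of 15 tested called higher and 4 lower in group MI. Gpc6, a glypican of the cell surface, was at 0.125 to 0.466 FPKM in group Sham and 7.89 to 14.3 FPKM in group MI. It entered the test only through group MI, so its log2 fold change of 3.10 on log2(FPKM + 1) is a description. Srgn, the intracellular proteoglycan serglycin of blood and endothelial cells, was called lower at -1.40 (adjusted p = 0.00114 by limma). In the DAPA comparison Gpc3, another glypican, was the only one called of 14 tested, from 11.3 to 24.1 FPKM in group MI to 3.60 to 5.38 FPKM with DAPA (log2 fold change -1.60, adjusted p = 0.558 by limma).

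Fibroblast markers outside the matrix moved with the members. Of 12 listed and found, 10 were tested in group MI vs. group Sham and 9 were called higher, with a median log2 fold change of 2.32, and none was at 0. With DAPA vs. group MI, Scara5 was called lower at -1.17 (adjusted p = 0.558 by limma) of 11 tested. The median of these 11 was -0.39, beside -0.41 for the members, and 1 of them had a positive value. The summed level of the 12 markers was 67.5 to 93.6 FPKM in group Sham, 510.5 to 756 FPKM in group MI and 464 to 777 FPKM under DAPA. Pi16 alone was at 11.1 to 38.2, 299 to 437 and 302 to 543 FPKM in the same order, so it weighs heavily in that sum. Pdgfra, a receptor that marks cardiac fibroblasts, had a log2 fold change of 2.81 (adjusted p = 0.000953 by limma) and Thy1, a fibroblast surface glycoprotein, one of 3.67 (adjusted p = 0.00106 by limma). The mean log2(FPKM + 1) of the 6 members was above that of the fibroblast markers by 2.57 ± 0.58 in group Sham, 2.89 ± 0.08 in group MI and 2.87 ± 0.21 under DAPA (SD, n = 3 each). Against the same mean of the 11 collagens found, that of the members was higher by 1.76 ± 0.47, 1.18 ± 0.11 and 1.31 ± 0.27 (SD, n = 3 each). The 11 include Col2a1, which was at most 0.0805 FPKM in any rat and lowers the collagen mean. By summed FPKM the collagens were above the 6 members in group MI, at 3138 to 6283 against 1970 to 3100. The part of fibroblast number in the members' rise was not tested.

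**Figure D5:**
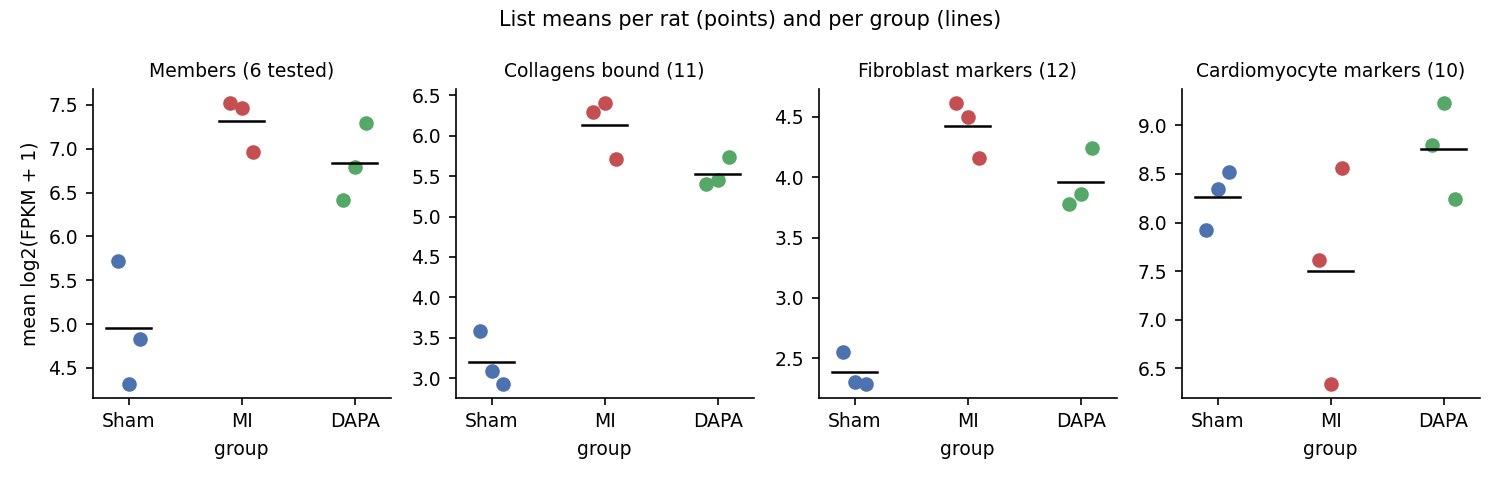
Mean log2(FPKM + 1) per rat (points) and per group (lines) for the 6 members tested, 11 collagens, 12 fibroblast markers and 10 cardiomyocyte markers, each panel with its own y axis. The first 3 panels are lowest in group Sham, and the cardiomyocyte markers are lowest in MI replicate 2.

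Other cell markers shifted as well. Macrophage markers summed to 153 to 492 FPKM in group Sham, 1915 to 3518 in group MI and 1059 to 1986 under DAPA (8 of 8 found and called higher in group MI). Myofibroblast markers (6 of 6 found) summed to 363 to 1538, 681 to 1009 and 666 to 947 FPKM, with 2 called higher in group MI, Cthrc1 at 4.12 and Postn at 4.82 (adjusted p = 0.00173 and 0.00744 by limma). The contractile genes of that list were not called and had negative values, Acta2 at -0.39, Tagln at -0.50 and Myl9 at -0.21 (adjusted p = 0.591, 0.53 and 0.67 by limma). Tendon and cartilage markers (8 of 8 found) summed to 8.996 to 26.5, 41.8 to 227.5 and 90.8 to 149 FPKM, with 3 of 5 tested called higher in group MI, among them Comp at 3.08 (adjusted p = 0.00497 by limma). T cell markers (6 of 7 found) summed to 6.50 to 18.8, 58.3 to 238.5 and 32.0 to 61.4 FPKM, and B and plasma cell markers (5 of 6 found) to 5.58 to 7.46, 35.1 to 3649.7 and 10.8 to 15.9 FPKM. Cd4 was the largest part of the T cell sum in both infarcted groups, at 48.3 to 124 FPKM in group MI and 23.1 to 51.5 FPKM under DAPA. Against group Sham, the DAPA-treated rats had 1 of 5 tested T cell markers called higher, with a median of 0.30. Smooth muscle and pericyte markers (6 of 6 found) summed to 142 to 266, 291 to 373 and 268 to 423 FPKM, and epicardial markers (5 of 5 found) to 41.6 to 42.0, 11.9 to 99.2 and 13.2 to 18.2 FPKM. In group MI vs. group Sham, 3 of 6 tested T cell markers and 2 of 3 B and plasma cell markers were called higher, and with DAPA vs. group MI 2 of each list were called lower. Smooth muscle and pericyte markers had 1 of 6 called higher in group MI, epicardial markers 1 higher and 1 lower of 3, cardiomyocyte markers 3 of 10 lower and endothelial markers 4 of 6 lower. With DAPA vs. group MI, all 10 cardiomyocyte markers had positive values with a median of 1.296, beside the members' negative ones, and Myl2 (1.59) and Tnni3 (1.56) were called higher (adjusted p = 0.558 for each by limma). The epicardial marker Msln was called lower at -3.67 (adjusted p = 0.558 by limma). The part of these cells in the members' values was not tested.

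Within group Sham, replicate 1 was the highest rat in each of the 7 members with reads, and without it 5 members were still called higher in group MI. Likeness of pattern was measured as the root mean square difference between mean-centred log2(FPKM + 1) values over the 9 rats. Among the members, Bgn and Prelp were nearest to each other (0.213), followed by Bgn and Lum (0.345), and Fmod was farthest from Lum (1.78), Prelp (1.76), Bgn (1.76) and Ogn (1.597). Dcn was about as far from Fmod (0.969) as from the other members (0.940 to 1.001). To the mean profile of the 6 members, the nearest of the 14151 other genes ranked were Cpq (0.172), Aebp1 (0.195), Fzd7 (0.226), Pld4 (0.227) and Pqlc3 (0.233). Aebp1, a secreted collagen-binding protein, averaged 25.2 FPKM in group Sham, 126 in group MI and 89.6 under DAPA. Cpq, a plasma carboxypeptidase, averaged 9.02, 50.9 and 33.1 FPKM in the same order.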

How the data were processed

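Left ventricles of 9 rats, 3 per group, had been sequenced as poly-A selected RNA. The authors deposited FPKM for each rat, already divided by gene length and a library-size term that did not follow the total reads recovered. The submitters' processing notes name HISAT2 2.0.5, StringTie 1.3.3b, featureCounts 1.5.0-p3 and DESeq2, and the genome build is not given in the sources used here. All columns were used, the number not used being 0, and they were assigned to rats by name. The study's methods describe the samples of a group as biological replicates.

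The low FPKM values of a gene are whole multiples of the value of 1 read. Reads came back whole within 0.02 for all 18896 genes seen in at least 4 libraries, and 3 reads were at most 2.21e-05% of a library, a floor that covers counting error only. The design assumed an FPKM table. limma 3.58.1 in R 4.3.3 was fitted on log2(FPKM + 1) with the 2 groups of a comparison, no covariate and a prior variance following mean expression, and adjusted p-values cover all genes tested. The calling thresholds follow the methods of the study. The fit was also run on simulated reads with the same dispersion for all genes, which does not measure its error rate in these rats. Python 3.11.15, numpy 2.4.6 and pandas 2.3.3 were used for the other steps, and the motif search used RefSeq promoters.

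The members and the other 17 gene lists were chosen with earlier results of these data known. Named beside the members were at most 2 genes per list by p in MI vs. Sham, 1 by p in DAPA vs. MI, and the 5 genes nearest in pattern; Epyc, Optc, Col1a1, Kdr, Scara5, Tnni3, Acta2, Tagln and Myl9 were named after their values were seen. Gene names came from the deposited file. Alternatives were a pseudocount of 0.1, no filter, 1 fit of all 9 rats, the replicate number as a block, 3 other scalings (to an equal total FPKM per rat with and without mitochondrial genes, and by median of ratios), no variance trend, adjusted p-values, no fold threshold and each rat left out.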

Additional observations from a re-analysis of the deposited data

How the results depend on the processing

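The 5 members called higher in group MI vs. group Sham remained called under each alternative tried, by name, with Fmod as a further call only after rescaling to an equal total FPKM per rat with mitochondrial genes included. In MI + DAPA (1st d) vs. MI the number called was 1 (Lum, lower) after that rescaling and ran from 0 to 1 without each rat in turn, the call appearing without MI replicate 3. In MI + DAPA (1st d) vs. Sham it ran from 4 to 5. That rescaling moved the median of all genes to 1.301 in MI vs. Sham, -0.34 with DAPA vs. MI and 1.00 in DAPA vs. Sham. Reversed log2 fold changes were those of Fmod in MI vs. Sham (1.13 after that rescaling, and -0.89 to 0.097 with rats left out, positive without Sham replicate 1), Fmod in DAPA vs. Sham (0.48 after the rescaling), Ogn with DAPA vs. MI (-1.67 to 0.061, positive without DAPA replicate 1) and Prelp with DAPA vs. MI (-0.29 to 0.17, positive without MI replicate 1), and the cause was not tested. Of the ratios, Bgn to Dcn ran from -0.49 to 0.091 in DAPA vs. MI and Aspn to Dcn from -1.10 to 0.017 in DAPA vs. Sham with single rats left out, and Aspn to Dcn was -0.35 with 1 FPKM added in MI vs. Sham and 1.03 with Aspnl1 added in DAPA vs. Sham. Without MI replicate 2, Aspn made up 0.0371% of the members' sum in group MI in place of 0.112%, and without DAPA replicate 3 Ogn made up 0.543% under DAPA in place of 0.942%.

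The replicate numbers name different animals. Rats with the same number had correlations of -0.304 to 0.195 in their deviations from the group means, and 3 of 9 rats correlated best with a rat of its own number. A fit with that number as a block called 5, 0 and 4 members in MI vs. Sham, DAPA vs. MI and DAPA vs. Sham, as without it, while over all genes 71 were higher and 146 lower with DAPA vs. MI in place of 126 and 147. Depth limits Aspn most, at 3 to 20 reads in group Sham.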
